A study of Mus musculus with 4 samples.

Results

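mmu-miR-203-3p, mmu-miR-205-5p, mmu-miR-31-5p and mmu-miR-184-3p are miRNAs known from skin and other surface epithelia, and they were picked by name for that tissue. All 4 were found, each as an entry of its own, among the 921 miRNA entries and 94 piRNA entries counted in mouse plasma. Plasma RNA was sequenced in 4 libraries, 2 from mice with acute myocardial infarction (AMI) and 2 from Sham-operated mice. The mice were C57BL/6, and by the methods of the study male and 8 weeks old. In AMI mice the left anterior descending coronary artery was closed with a lasting ligature, and Sham mice had thoracotomy alone. Neither the route nor the hour of blood sampling for these libraries is given in the sources used here, nor whether separate mice stand behind the libraries of each group, so the p-values measure only the spread between libraries, which may be technical.

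In the epidermis, basal cells divide and their daughters differentiate as they move outwards. miR-205 is abundant in the basal layer and in other stratified epithelia, and together with the miR-200 family it represses Zeb1 and Zeb2, which drive cells out of the epithelial state. miR-203 comes on as keratinocytes differentiate, and in mouse skin it represses p63, the transcription factor of basal cells. miR-31 is induced in the growing hair follicle and at wound edges in mice, and is made in other tissues too. miR-184 is abundant in the cornea and lens, and in human corneal keratinocytes it has been found to counter the action of miR-205 on the lipid phosphatase SHIP2.

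The mature sequences are shown because each has a seed, the stretch that pairs with targets, of its own. They are those of RefSeq (GRCm38.p6), with the seed, bases 2 to 8 from the 5′ end, in capitals.
miR-203-3p: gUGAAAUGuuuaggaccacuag
miR-205-5p: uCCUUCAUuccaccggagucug
miR-31-5p: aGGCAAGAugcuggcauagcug
miR-184-3p: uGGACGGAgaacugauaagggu

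None of these seeds occurred in another mature miRNA of the RefSeq table, which held 787 of the 932 miRNA names of the count table. Mir203 lies at chr12:112130880-112130955 (plus strand) between genes, 3321 bases from Aspg, by the GENCODE annotation of GRCm38, the build that mm10 names. Mir184 lies at chr9:89802260-89802328 (minus strand), also between genes, 542 bases from the non-coding 1700017I07Rik. Mir205 lies at chr1:193507463-193507530 (minus strand) in an exon of the non-coding 4631405K08Rik. Mir31 lies at chr4:88910557-88910662 (minus strand) in an exon of the non-coding AL805899.1.

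In all, 9016139 UMIs were counted for AMI 1, 11461361 for AMI 2, 7460687 for Sham 1 and 4842247 for Sham 2. A UMI is a random tag put on each cDNA before amplification, so that PCR copies of a molecule are counted once. Levels are given in CPM, UMIs per 1000000 after TMM scaling between libraries. AMI and Sham were compared with the quasi-likelihood test of edgeR over the 772 miRNAs that passed its filter on low counts, two-sided, with Benjamini-Hochberg adjustment over all 772 and a threshold of 0.05.

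A single library, Sham 2, held most of the plasma signal of miR-203-3p and miR-205-5p, while miR-31-5p and miR-184-3p were spread over the 4 libraries. For miR-203-3p, AMI 1 gave 5882 UMIs and AMI 2 gave 8650, whereas Sham 1 gave 6915 and Sham 2 gave 25757. Sham 2 was the shallowest of the 4 libraries and still gave the largest count of this miRNA. As a level, that was 672 and 897 CPM in the AMI libraries, against 918 and 4454 CPM in the Sham libraries. Sham 2 stood at 5.37-fold the mean of the other 3 libraries, which differed among themselves by at most 1.37-fold. At these counts the sampling error is small, with an exact 95% Poisson interval of 4400 to 4509 CPM in Sham 2 and of 896 to 940 CPM in Sham 1. Such intervals cover counting error only.

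miR-205-5p, the most abundant of the 4, followed the same pattern. AMI 1 gave 23255 UMIs and AMI 2 gave 19805, whereas Sham 1 gave 18761 and Sham 2 gave 61948. These were 2657 and 2055 CPM in the AMI libraries against 2490 and 10713 CPM in the Sham libraries. Sham 2 stood at 4.46-fold the mean of the other libraries, whose range was 1.29-fold, and Sham 1 lay between AMI 1 and AMI 2. Of the summed CPM of the 4 libraries, Sham 2 held 64.2% for miR-203-3p and 59.8% for miR-205-5p. Over the 772 tested miRNAs the median share of the highest library was 36.9%, and the share was as large or larger than that of miR-203-3p in 6 miRNAs and than that of miR-205-5p in 12, each count including the miRNA itself.

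miR-184-3p was steady. AMI 1 gave 18438 UMIs and AMI 2 gave 22412, whereas Sham 1 gave 14910 and Sham 2 gave 16399. Its level was 2107 and 2325 CPM in AMI plasma, against 1979 and 2836 CPM in Sham plasma. Its highest library was again Sham 2, which held 30.7% of the summed CPM, below the median share of all tested miRNAs. miR-31-5p was the least abundant, with 740 and 768 UMIs in AMI plasma and 1058 and 692 in Sham plasma. Its level was 84.6 and 79.7 CPM in AMI plasma, against 140 and 120 CPM in Sham plasma. Here Sham 1 was the highest library, Sham 2 was slightly below it, and both AMI libraries were below both Sham libraries. Scaled by library size alone, Sham 2 led Sham 1 by 1.01-fold for miR-31-5p.

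**Figure D1:**
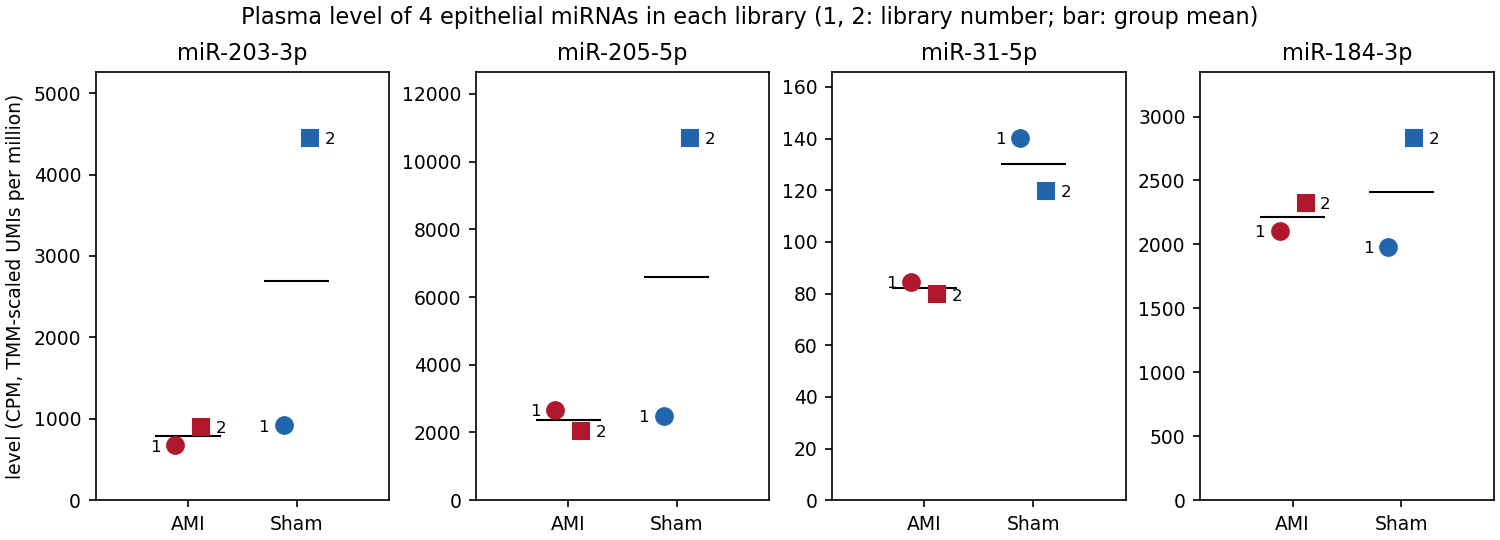
Level in CPM of miR-203-3p, miR-205-5p, miR-31-5p and miR-184-3p in each plasma library, with AMI on the left and Sham on the right of each panel, each point numbered by its library, and a bar at the group mean. miR-203-3p and miR-205-5p reach 4454 and 10713 CPM in Sham 2 and stay at 672 to 918 and 2055 to 2657 CPM in the other libraries, while the other panels show no such gap.

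The gap between the highest and the second highest library ranked miR-203-3p first and miR-205-5p second of the 772 miRNAs tested, at 4.85-fold and 4.03-fold. The median gap was 1.25-fold and the 95th percentile 2.09-fold. miR-7222-5p, a far rarer miRNA with 86 and 96 UMIs in AMI plasma and 54 and 228 in Sham plasma, came next at 3.96-fold. miR-199b-5p followed at 3.74-fold, also highest in Sham 2, with 395 and 416 UMIs in AMI plasma and 1967 and 5641 in Sham plasma. After it came miR-3473e at 3.62-fold, which was highest in AMI 1. miR-184-3p (1.22-fold) and miR-31-5p (1.17-fold) lay near the median. Scaled by library size alone, the gap of miR-184-3p was 1.65-fold (rank 188 of 772), with Sham 2 highest. The first rank of miR-203-3p held under each of 4 scalings and on read counts, and the rank of miR-205-5p was 2 to 4 there, as low as 4 when levels were scaled by the 6 reference miRNAs of the study. Sham 2 was the highest library for 239 of the 772 miRNAs (31.0%), so that being highest there was common and the size of the gap was not. These ranks describe the libraries and are not a test.

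**Figure D2:**
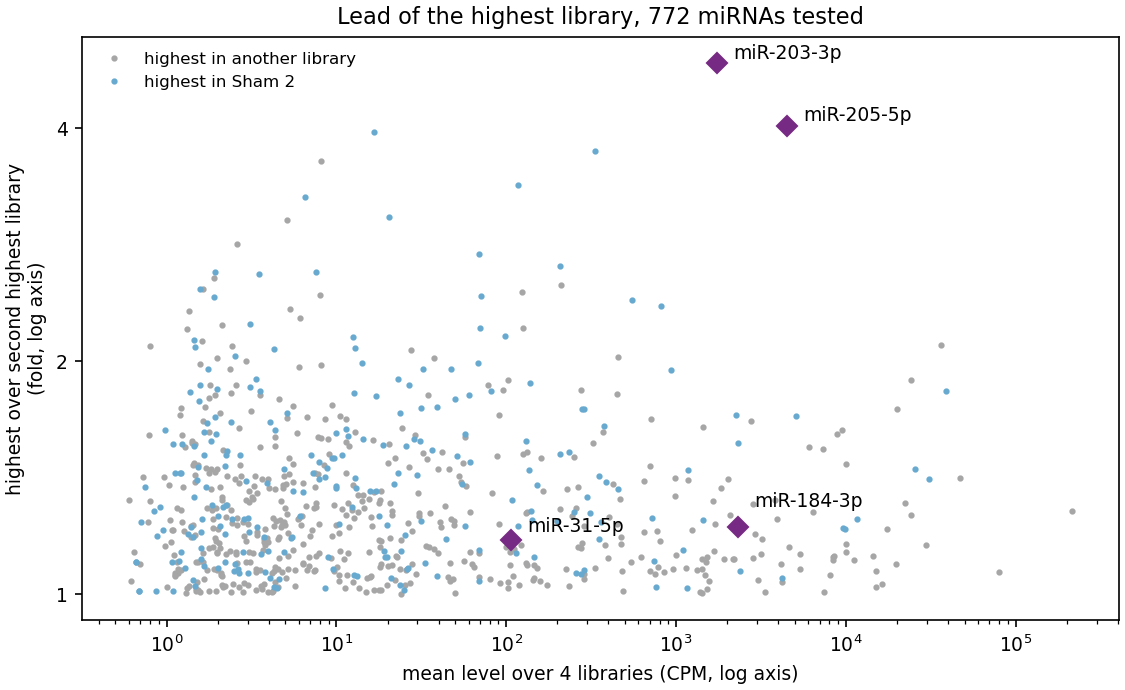
Ratio of the highest to the second highest library (log axis) against the mean level in CPM (log axis) for the 772 tested miRNAs, with those highest in Sham 2 in blue and the 4 epithelial miRNAs as diamonds. miR-203-3p (4.85-fold) and miR-205-5p (4.03-fold) stand above all others, and miR-31-5p and miR-184-3p lie in the dense band near 1.2-fold.

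The 4 miRNAs together made up 0.540% (AMI 1), 0.453% (AMI 2), 0.559% (Sham 1) and 2.17% (Sham 2) of all UMIs assigned to miRNAs. Their summed level was 5521 and 5357 CPM in the AMI libraries and 5527 CPM in Sham 1, against 18122 CPM in Sham 2. The lead of Sham 2 over the next library was 3.28-fold, and without Sham 2 the next lead was 1.00-fold. The make-up of the sum changed as well. miR-184-3p was 38.2% and 43.4% of it in the AMI libraries and 35.8% in Sham 1, but 15.6% in Sham 2. The ratio of miR-205-5p to miR-184-3p, which needs no scaling between libraries, was 1.26 and 0.884 in AMI plasma, against 1.26 in Sham 1 and 3.78 in Sham 2. The ratio of miR-205-5p to miR-203-3p was 3.95 and 2.29 in AMI plasma and 2.71 and 2.41 in Sham plasma, so Sham 2 lay within the range of the others.

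More reads were spent per UMI in Sham 2, for the 4 miRNAs and for the library as a whole. Reads per UMI in Sham 2 were 1.31 for miR-203-3p, 1.27 for miR-205-5p, 1.26 for miR-31-5p and 1.28 for miR-184-3p, against 1.28 over all entries of that library. In the other 3 libraries they were 1.09 to 1.13 for the 4 miRNAs, against 1.16 to 1.19 over all entries.

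In the comparison of AMI with Sham plasma, 1 of the 4 miRNAs passed the test, and its log2 fold change went from −1.78 to −0.25 without Sham 2. miR-203-3p averaged 785 ± 159 CPM in AMI and 2686 ± 2501 CPM in Sham plasma (SD, n = 2 libraries each), which is −1.78 on the log2 scale with a standard error of 0.59 (edgeR, adjusted p = 0.0433). Leaving out Sham 2 gave −0.25, and without Sham 1 it was −2.51. Without AMI 1 it was −1.56 and without AMI 2 −2.0, about as large as with all 4 libraries. A fit with a library left out has 1 library in a group and takes the spread of that group from the other. Its p-values and intervals rest on that assumption. With all 4 libraries, the call was lost with scaling by the 6 references (edgeR, adjusted p = 0.0910), with a filter at 10 UMIs (0.0558) and with the replicate block (0.0901). For comparison, 12.7% of the 772 miRNAs were called lower and 14.8% higher in AMI plasma.

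miR-205-5p averaged 2356 ± 426 CPM in AMI and 6601 ± 5814 CPM in Sham plasma (SD, n = 2 each), which is −1.49 on the log2 scale with a standard error of 0.56 (edgeR, adjusted p = 0.0679), and the groups overlapped. It passed the threshold in some alternatives, such as RLE size factors (edgeR, adjusted p = 0.0280), and not in others, such as scaling by the 6 references (edgeR, adjusted p = 0.133). Leaving out Sham 2 gave −0.11, and leaving out Sham 1 gave −2.19. With all 4 libraries the SD of the Sham group was close to its mean for both miRNAs.

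miR-31-5p averaged 82.1 ± 3.45 CPM in AMI and 130 ± 14.7 CPM in Sham plasma (SD, n = 2 each), which is −0.66 on the log2 scale with a 95% interval of −1.46 to 0.13 (edgeR, adjusted p = 0.199). With all 4 libraries it passed the threshold with DESeq2 alone (adjusted p = 0.0320), and without Sham 2 it was at −0.80. miR-184-3p averaged 2216 ± 154 CPM in AMI and 2407 ± 606 CPM in Sham plasma (SD, n = 2 each), which is −0.12 on the log2 scale with a 95% interval of −0.91 to 0.67 (edgeR, adjusted p = 0.869). The sign turned to 0.044 with scaling by the 6 references and to 0.13 without Sham 2. For miR-203-3p and miR-31-5p, 2 of the 4, both AMI libraries were below both Sham libraries, as for 30.4% of the miRNAs tested, and for 0 of the 4 were they above, as for 35.0%. For miR-203-3p this rests on 897 CPM in AMI 2 against 918 CPM in Sham 1, whose 95% Poisson intervals overlap (879 to 916 and 896 to 940). Plasma mixes RNA from many sources, so release from more cells of a type and more release per cell cannot be told apart.

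**Figure D3:**
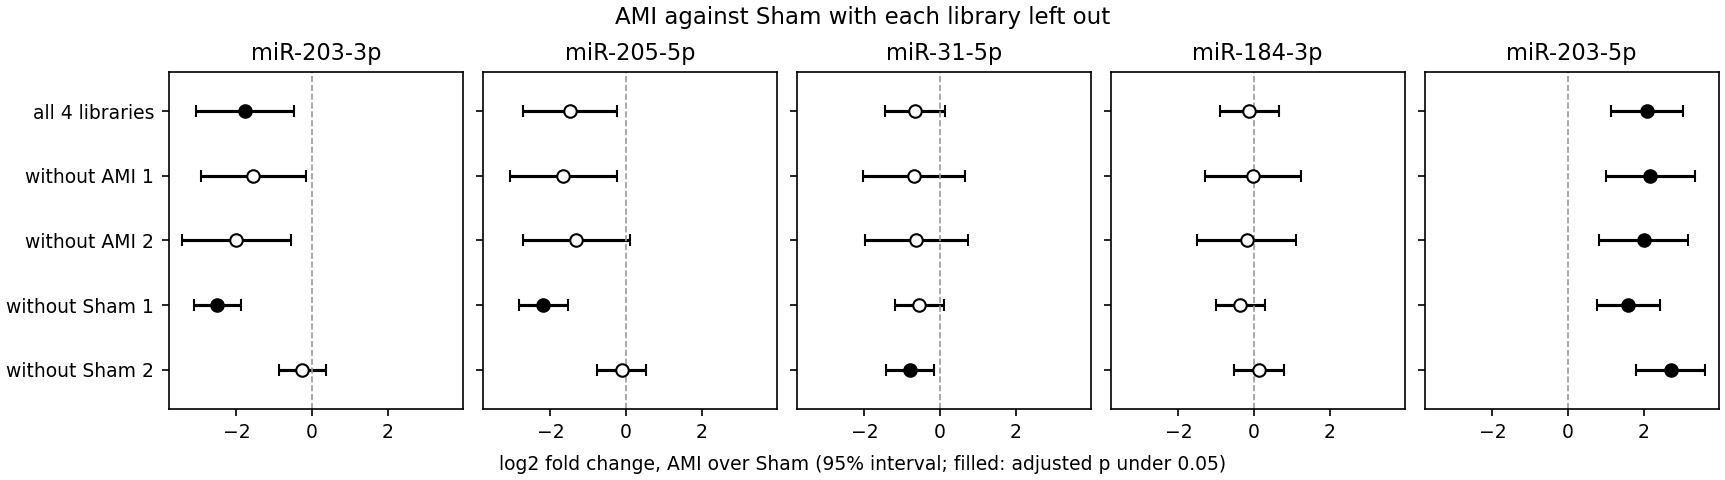
Log2 fold change of AMI over Sham from edgeR with its 95% confidence interval, for the 4 epithelial miRNAs and miR-203-5p, with all libraries and with each left out, filled where the adjusted p is under 0.05. miR-203-3p and miR-205-5p move to −0.25 and −0.11 without Sham 2, whereas miR-203-5p keeps to the right of 0 in every row.

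With all 4 libraries, a measure of steadiness, M, separated the 4 in the same way. It averages, over all other miRNAs, how much the log2 ratio to each of them varies between libraries (as an SD), so it is low for a steady miRNA and needs no scaling. The median M was 0.939 over the 764 miRNAs that were detected in all 4 libraries. miR-184-3p had an M of 0.766 (rank 71 from the steadiest) and miR-31-5p of 0.831 (rank 213), whereas miR-205-5p had 1.31 (rank 653) and miR-203-3p 1.44 (rank 691). Without Sham 2, M of miR-205-5p was 0.677 (rank 106 of 765) and that of miR-203-3p 0.709 (rank 194), so that outside this library both were steadier than the median miRNA (0.798). Both were then also steadier than miR-31-5p (0.784, rank 355), while miR-184-3p stayed the steadiest of the 4 (0.653, rank 36).

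The miRNAs most like each member were sought among 358 others with at least 50 UMIs in every library, by the SD of the log2 ratio across the 4 libraries. Closest to miR-184-3p were miR-532-5p (SD 0.032), miR-200a-3p (0.048) and miR-10b-3p (0.094), against a median SD of 0.62. miR-200a-3p, also an epithelial miRNA, gave 8708 and 11123 UMIs in AMI plasma and 6869 and 7615 in Sham plasma. Closest to miR-31-5p were miR-3963 (0.063), miR-106b-3p (0.097) and miR-542-5p (0.12), against a median of 0.62. miR-205-5p was followed most closely by miR-341-3p (0.20), miR-7222-5p (0.31) and miR-134-5p (0.37), against a median of 1.17. For miR-203-3p they were miR-497a-5p (0.39), miR-7222-5p (0.40) and miR-341-3p (0.46), against 1.27, and miR-205-5p itself was closer still at 0.36. Each of these nearest miRNAs of miR-203-3p and miR-205-5p was far less abundant, with at most 2471 UMIs in any library.

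The other arm of Mir203 went the other way from miR-203-3p between AMI and Sham plasma, though both were higher in Sham 2 than in Sham 1. For Mir31 both arms had a negative log2 fold change that did not pass the test with all 4 libraries. A miRNA hairpin gives a 5p and a 3p strand, of which 1 is usually kept in much larger amounts, and the other arms are shown with their seeds in capitals since the contrast between arms was largest in Mir203.
miR-203-5p: aGUGGUUCuugacaguucaaca
miR-184-5p: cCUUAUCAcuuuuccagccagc
miR-31-3p: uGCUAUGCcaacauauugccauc

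miR-203-5p was counted at 148 UMIs in AMI 1 and 181 in AMI 2, against 20 in Sham 1 and 34 in Sham 2, so both AMI libraries were above both Sham libraries. It averaged 17.8 ± 1.32 CPM in AMI and 4.27 ± 2.28 CPM in Sham plasma (SD, n = 2 each), which is 2.09 on the log2 scale with a standard error of 0.43 (edgeR, adjusted p = 0.00493). It passed the threshold in every alternative that kept all 4 libraries, with an adjusted p of at most 0.0126 from edgeR. Leaving out a library gave 1.60 to 2.71. In Sham 2, where miR-203-3p was highest, miR-203-5p had 5.88 CPM, against 2.65 CPM in Sham 1. miR-184-5p was counted at 43 UMIs in AMI 1 and 36 in AMI 2, against 7 in Sham 1 and 15 in Sham 2 (log2 fold change 1.34, adjusted p = 0.0598 from edgeR). Alternatives that kept all 4 libraries gave an adjusted p of 0.0140 (edgeR, no filter) to 0.161 (edgeR, library size alone). It was at 0.73 without Sham 1 and 2.17 without Sham 2. miR-31-3p was counted at 21 and 31 UMIs in AMI plasma and 21 and 34 in Sham plasma, which is −0.59 on the log2 scale (edgeR, adjusted p = 0.342). That value was −1.06 without Sham 1 and −0.014 without Sham 2. miR-205-3p was at 25 and 9 UMIs in AMI 2 and Sham 1 and at 0 in AMI 1 and Sham 2. Between AMI 1 and Sham 2, and between AMI 2 and Sham 1, the larger count of an entry was never between 1 and 9, while the other pairings held 71 to 169 such entries. Zeros shared by such a pair may therefore not be measured absence, and miR-205-3p was not compared.

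As a share of both arms, miR-203-5p was 2.45% (95% exact binomial interval 2.08 to 2.88) and 2.05% (1.76 to 2.37) in AMI plasma, and 0.288% (0.176 to 0.445) and 0.132% (0.0913 to 0.184) in Sham plasma. This share needs no scaling between libraries, and the intervals of the AMI libraries lay wholly above those of the Sham libraries. The log2 ratio of miR-203-5p to miR-203-3p was 3.55 higher in AMI than in Sham plasma, the largest such difference among 180 hairpins with at least 5 UMIs of the lesser arm in every library, whose median was −0.05. With a minimum of 1 UMI it ranked 2 of 196. Without Sham 2 the difference was 2.99 (rank 2), without Sham 1 it was 4.12, and it was 3.42 without AMI 1 and 3.69 without AMI 2 (rank 2). For Mir184 the share of miR-184-5p was 0.233% and 0.160% in the AMI libraries, against 0.0469% and 0.0914% in the Sham libraries, a difference of 1.56 on the log2 scale (rank 15), or 1.08 without Sham 1 and 2.04 without Sham 2. Thus 2 of the 3 hairpins that could be compared had a larger share of the lesser arm in both AMI libraries, as did 31.1% of all 180. For Mir31 the share was 2.76% and 3.88% in AMI plasma and 1.95% and 4.68% in Sham plasma, and the groups overlapped. The arm ratios were added after the values had been seen, and with 2 libraries per group they are given without a test.

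**Figure D4:**
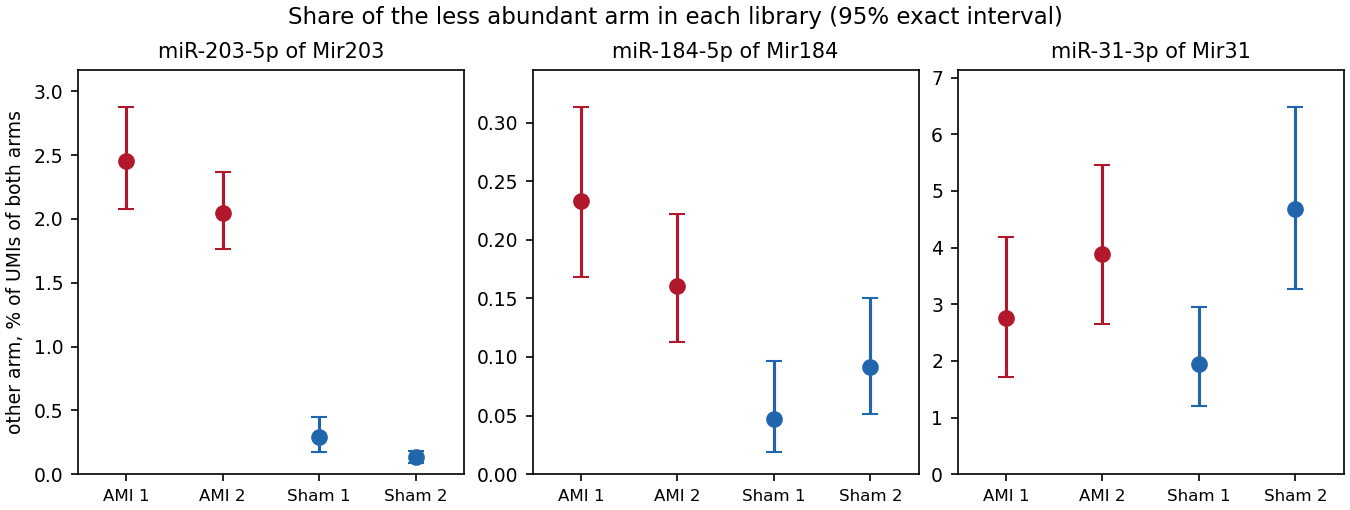
Share of the less abundant arm among the UMIs of both arms of Mir203, Mir184 and Mir31 in each library, in percent, with 95% exact binomial intervals for counting error only. miR-203-5p is at 2.45% and 2.05% in AMI plasma and at 0.288% and 0.132% in Sham plasma, while the shares of miR-31-3p overlap.

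Other epithelial miRNAs were also often highest in Sham 2, by a smaller margin. Of 9 miRNAs of simple and glandular epithelia, 8 were highest in Sham 2, against 31.0% of all 772 miRNAs. The median level of the 9 there was 1.32-fold the mean of the other 3 libraries (0.943-fold over all 772 miRNAs). The count of 8 was taken under TMM scaling alone and includes narrow leads. miR-200b-3p, a reference miRNA of the study, was at 1287 CPM in Sham 2 and 1265 CPM in Sham 1. miR-375-3p was at 336 CPM in Sham 2 and 316 CPM in AMI 1. miR-200c-3p, which shares the targets Zeb1 and Zeb2 with miR-205, had 522 and 490 CPM in the AMI libraries, against 932 and 1814 CPM in the Sham libraries. Its level in Sham 2 was 2.80-fold the mean of the others, the most of the 9, which stayed below the 5.37-fold and 4.46-fold of miR-203-3p and miR-205-5p. On the same measure miR-183-5p was at 2.78-fold, miR-182-5p at 2.32-fold and miR-96-5p at 1.87-fold. Lower were miR-375-3p at 1.32-fold, miR-200a-3p at 1.29-fold, miR-141-3p at 1.27-fold and miR-200b-3p at 1.15-fold. miR-429-3p, at 0.844-fold, was highest in AMI 2. Of the 9, 0 were higher and 2 lower in AMI plasma, with a median log2 fold change of −0.29, against 14.8% higher, 12.7% lower and a median of 0.04 over all 772 miRNAs. These were miR-200c-3p (−1.44, adjusted p = 0.0208 from edgeR) and miR-183-5p, made in sensory epithelia (−1.65, adjusted p = 0.0130). They were at −0.91 and −1.22 without Sham 2, at −1.46 and −1.36 without AMI 1, and at −1.40 and −1.96 without AMI 2. Such fits leave 1 library in a group, so no call is read from them. With all 4 libraries, the call of miR-200c-3p was lost with the replicate block (−1.36, adjusted p = 0.0508 from edgeR).

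Of 8 further miRNAs described in keratinocytes or hair follicles, such as miR-24-3p and miR-125b-5p, 1 was highest in Sham 2 and the median level there was 1.02-fold that of the others. Of these, 1 was higher in AMI plasma, miR-22-3p, which is made in many tissues, and 0 were lower (14.8% and 12.7% of all tested miRNAs), with a median of 0.45. The log2 fold change of miR-22-3p was 1.87 (edgeR, adjusted p = 0.0137), and 1.72 without AMI 1. The list is not specific to skin, and its summed level was 34828 and 35470 CPM in the AMI libraries, against 20006 and 22899 CPM in the Sham libraries.

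Of 6 miRNAs of dermis and smooth muscle, 3 were highest in Sham 2, with miR-199a-5p, a fibroblast miRNA, at 3.62-fold the mean of the others (339 and 382 CPM in the AMI and 754 and 1779 CPM in the Sham libraries) and miR-145a-5p, a smooth muscle miRNA, at 0.303-fold (5211 and 4429 CPM against 1942 and 1170 CPM). In that list 1 was higher and 1 lower in AMI plasma (14.8% and 12.7% of all tested miRNAs), with a median of −0.90. The log2 fold change was 1.63 for miR-145a-5p (edgeR, adjusted p = 0.0106) and −1.81 for miR-199a-5p (0.0115). The 2 values were 1.53 and −1.70 without AMI 1, and 1.74 and −1.90 without AMI 2. Without Sham 2 they were 1.28 and −1.09. miR-211-5p, a pigment cell miRNA, was counted at 64 UMIs in AMI 1 and 43 in AMI 2, against 249 in Sham 1 and 274 in Sham 2 (log2 fold change −2.77, adjusted p = 0.000875 from edgeR), while its relative miR-204-5p of the lens was at 0.44 (adjusted p = 0.432).

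None of the red cell, platelet and leukocyte, muscle or hepatocyte miRNAs listed was highest in Sham 2, against 31.0% of all tested miRNAs. Most of the muscle and all of the hepatocyte miRNAs were called higher in AMI plasma, so for them a Sham library could hardly be highest. The 4 red cell miRNAs, 0 of which were called (median log2 fold change 0.21), summed to 279133 and 337621 CPM in the AMI libraries, and 298038 and 158079 CPM in Sham 1 and Sham 2. The 4 platelet and leukocyte miRNAs, 0 of which were called (median −0.61), summed to 51011 and 56441 CPM in the AMI and 63905 and 49435 CPM in the Sham libraries. Over all 772 tested miRNAs, 14.8% were called higher and 12.7% lower in AMI plasma. For lists of 4, a count of 0 is therefore not read as steadiness. Against 14.8% of all tested miRNAs, 3 of the 4 muscle miRNAs were higher in AMI (median 3.37), namely miR-1a-3p, miR-133a-3p and miR-133b-3p of heart and skeletal muscle. miR-206-3p, the skeletal muscle miRNA among them, was at 2459 and 3856 CPM in the AMI and 6561 and 5709 CPM in the Sham libraries, higher in Sham 1 than in Sham 2. The 3 hepatocyte miRNAs were also all higher in AMI (median 2.70, against the same 14.8%) and summed to 81902 and 116664 CPM in the AMI, and 8208 and 20422 CPM in the Sham libraries. Every marker on these lists was detected in every library. The part of sampling through skin, of depth or of these other sources in the Sham 2 level of miR-203-3p and miR-205-5p was not tested.

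**Figure D5:**
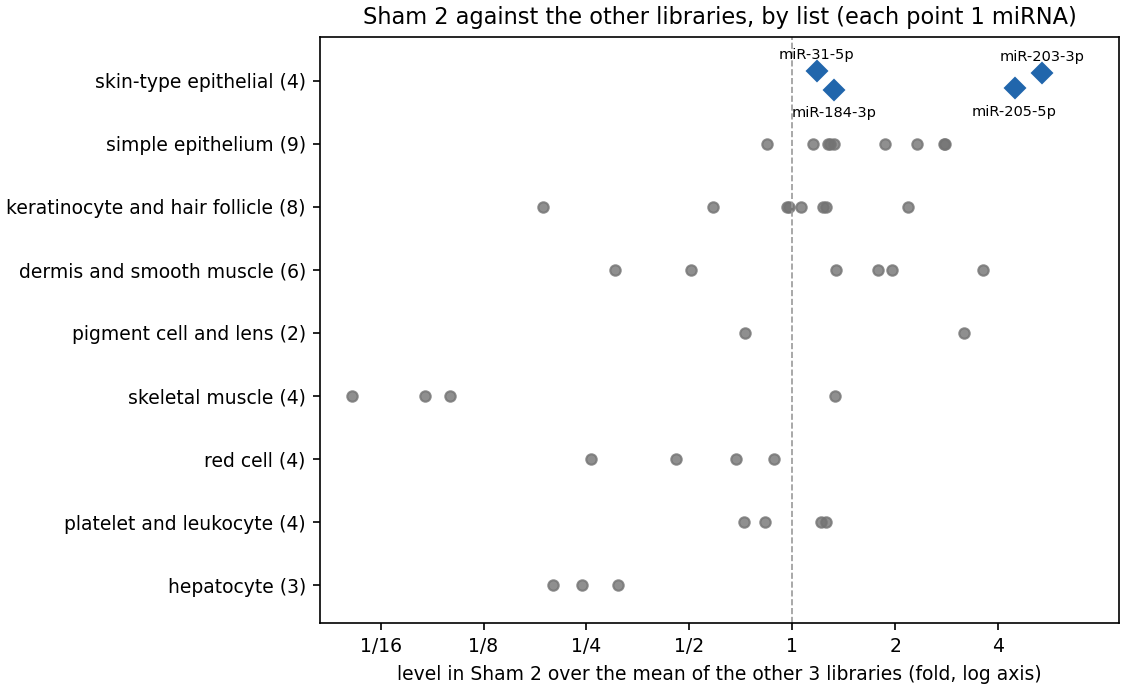
Level in Sham 2 over the mean of AMI 1, AMI 2 and Sham 1 (fold, log axis) for each miRNA of 9 groups, with the number of miRNAs in brackets and the 4 epithelial miRNAs as diamonds in the top row. miR-203-3p (5.37-fold) and miR-205-5p (4.46-fold) are farthest to the right, followed by miR-199a-5p (3.62-fold) and miR-211-5p, and the hepatocyte miRNAs are below 1.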

How the data were processed

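Plasma small RNA was read in 2 AMI and 2 Sham libraries. The table the authors deposited holds, per miRNA or piRNA entry, raw UMI and read counts, unnormalized. The submitters' processing notes name bcl2fastq 2.18.0.12 and the build mm10, and the sources used here name no trimmer, aligner or counter. A blank line that heads the piRNA section was left out. The test on UMI counts was the quasi-likelihood test of edgeR 4.0.16 (R 4.3.3), with TMM factors, the filterByExpr filter and robust dispersions. The fit, M and the gap between libraries were first tested on simulated data. The standard error is the log2 fold change divided by the root of F, and its interval uses the moderated degrees of freedom. M and exact intervals were computed in Python 3.11.15 with numpy 2.4.6 and scipy 1.17.1. Depth per library was 4842247 to 11461361 UMIs. Alternatives were DESeq2 1.42.0, 3 other scalings, 2 other filters, read counts, piRNA entries included, a replicate block and each library left out, and 2 added after the data were seen. The members and lists were chosen with earlier results of these data known. Named are the members, their other arms, list members called with up to 4 abundant others per list, and the 3 miRNAs most like each member. Lists were simple epithelium, keratinocyte and hair follicle, dermis and smooth muscle, pigment cell and lens, skeletal muscle (with heart), red cell, platelet and leukocyte, and hepatocyte.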

Additional observations from a re-analysis of the deposited data

How the results depend on the processing

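miR-203-3p kept its direction under all 15 alternatives but fell short of the threshold with scaling by the 6 references (−1.63) and at least 10 UMIs in every library (−1.72). With the replicate block, which pairs libraries by name only, it also fell short (−1.38, edgeR, adjusted p = 0.0901). With the crossed block it passed (−1.38, edgeR, adjusted p = 0.0108). Leaving out a library gave log2 fold changes of −2.51 to −0.25. miR-205-5p passed the threshold with library size alone (−1.82), RLE (−1.56), no filter (−1.52), read counts (−1.48), piRNA entries included (−1.48), the crossed block (−1.14) and with the entries missing from a pair left out (−1.49), and left-out libraries gave −2.19 to −0.11. miR-31-5p passed with DESeq2 (−0.73), and left-out libraries gave −0.80 to −0.55. miR-184-3p turned sign with scaling by the 6 references (0.044) and without Sham 2 (0.13, range −0.36 to 0.13). The cause of these shifts was not tested. Scaling by library size moved the median of all miRNAs by −0.27 and scaling by the 6 references by 0.17.

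Of all miRNAs tested, 114 were higher and 98 lower in AMI, with 47 to 165 higher and 29 to 140 lower when a library was left out (47 and 32 without AMI 1, 66 and 29 without AMI 2, 165 and 140 without Sham 1, 137 and 124 without Sham 2), 86 and 147 by library size alone, and 129 and 74 by the 6 references. A left-out library leaves its group with 1, which is then assumed to vary like the other group. The replicate numbers pair the libraries by name only, and deviations of same-numbered libraries had a correlation of −0.26 across the 772 miRNAs (0.00 with the entries missing from a pair left out). The block gave 96 higher and 76 lower and the crossed pairing 133 and 116. Of the simple epithelium list 1 was called with the replicate block and 0 to 3 with a library left out (0 without AMI 1 and without AMI 2). Of the keratinocyte and hair follicle list 3 were called with DESeq2, on read counts and without entries missing from a pair, 2 by library size, RLE, the 6 references, no filter, the filter at 10 UMIs, piRNA entries included and the crossed block, and 0 to 5 with a library left out (0 without AMI 1, 3 without Sham 1, 5 without Sham 2).

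The lead of Sham 2 in the summed level of the 4 was 1.53 to 1.96 on the log2 scale under other scalings and read counts. It was 1.17 to 2.11 with a member left out, and stayed at 1.71 when any other library was left out. Without Sham 2 itself, Sham 1 was highest, by 0.00160. M of miR-31-5p was 0.742 and 0.739 with minimums of 10 and 50 UMIs, and that of miR-184-3p 0.693 with 10. With a library left out, M was 0.709 to 1.64 for miR-203-3p, 0.677 to 1.48 for miR-205-5p, 0.784 to 0.846 for miR-31-5p and 0.653 to 0.799 for miR-184-3p. The arm difference of Mir31 (0.12) turned to −0.14 without AMI 2 and −0.54 without Sham 1, in a range of −0.54 to 0.77. The lesser arms rest on few counts, down to 7 UMIs.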
